A study of Mus musculus with 12 samples.

Results

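The vesicular glutamate transporters *Slc17a6*, *Slc17a7* and *Slc17a8* were followed across 12 hippocampus RNA-seq libraries, 1 per mouse. The 3 genes were taken by symbol from a table of 27179 gene IDs, and all 3 were among the 17937 genes with enough reads to be tested, each reaching the minimum level in 12 of 12 mice. They were selected on their counts in the comparison of genotypes, so their genotype differences are given here as a description without a test, while differences by sex, and between the sexes in the genotype effect, were tested. The mice were 3 months old: 3 female and 3 male *Nell-1*+/6R mice and 3 female and 3 male WT littermates. The 6R allele arose by ENU mutagenesis and is a loss-of-function allele of *Nell1*, which encodes a secreted glycoprotein of bone and brain. The mice carried it in every cell beside 1 normal copy, since mice with 2 mutant copies die at birth. The study asked how the hippocampal transcriptome of *Nell-1*+/6R mice differs from theirs. The labels number the mice within a group and name no litters or sequencing batches.

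A vesicular glutamate transporter moves glutamate from the cytoplasm into synaptic vesicles, drawing on the electrical and proton gradient that the vesicular proton pump builds. A neuron with such a transporter can release glutamate, so the 3 genes mark different sets of glutamate-releasing neurons. *Slc17a7* encodes VGLUT1, the main form in pyramidal cells and granule cells of the hippocampus and in cerebral cortex. *Slc17a6* encodes VGLUT2, the main form in thalamus, habenula, hypothalamus and brainstem. In the hippocampal region VGLUT2 is known from Cajal-Retzius cells, parts of the subiculum and the terminals of incoming fibres, whose cell bodies and most of whose RNA lie elsewhere. *Slc17a8* encodes VGLUT3, found in scattered neurons that also use another transmitter, such as CCK-containing interneurons and serotonin neurons.

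On GRCm38, the assembly also called mm10, *Slc17a6* (Entrez ID 140919) lies on the plus strand at chr7:51621830-51671126. *Slc17a7* (Entrez ID 72961) lies on the plus strand at chr7:45163921-45176139. *Slc17a8* (Entrez ID 216227) lies on the minus strand at chr10:89574020-89621249. *Nell1* (Entrez ID 338352), at chr7:49975350-50863289, falls between the first pair, 0.759 Mb from *Slc17a6* and 4.799 Mb from *Slc17a7*. The 6R allele and the chromosome 7 segment that came with it cannot be told apart in this design.

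The reading frames of the 3 genes are alike, which bears on whether a read can be placed. In GENCODE M21 the longest reading frame of the longest coding transcript holds 1749 bases in *Slc17a6*, 1683 in *Slc17a7* and 1806 in *Slc17a8*. Of the aligned bases, 71.7% were identical between *Slc17a6* and *Slc17a7*, 71.7% between *Slc17a6* and *Slc17a8* and 71.4% between *Slc17a7* and *Slc17a8*. The most similar windows of 50 bases in each pair of reading frames are shown here because they are the places where reads would be hardest to assign. Capitals mark the bases that differ within a pair, and positions count from the first base of the start codon. The first pair, bases 256 to 305 of *Slc17a6* and 232 to 281 of *Slc17a7*, differs at 3 bases:
*Slc17a6*: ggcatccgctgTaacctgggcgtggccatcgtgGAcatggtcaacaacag
*Slc17a7*: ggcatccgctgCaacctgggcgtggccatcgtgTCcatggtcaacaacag
The next pair, bases 568 to 617 of *Slc17a6* and 622 to 671 of *Slc17a8*, differs at 5 bases:
*Slc17a6*: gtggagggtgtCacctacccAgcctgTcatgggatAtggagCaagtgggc
*Slc17a8*: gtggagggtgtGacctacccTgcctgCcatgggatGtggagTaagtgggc
The last pair, bases 1369 to 1418 of *Slc17a7* and 1444 to 1493 of *Slc17a8*, differs at 4 bases:
*Slc17a7*: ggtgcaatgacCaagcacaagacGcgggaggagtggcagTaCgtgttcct
*Slc17a8*: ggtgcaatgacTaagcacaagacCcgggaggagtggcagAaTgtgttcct

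The longest stretch of transcript that any pair shares without a difference was 21 bases for *Slc17a6* and *Slc17a7*, 25 for *Slc17a6* and *Slc17a8* and 20 for *Slc17a7* and *Slc17a8*. Of all different 50-base stretches in the transcripts of a gene, 0 of 5483 in *Slc17a6* and 0 of 5678 in *Slc17a7* also occurred in a transcript of another gene on either strand. In *Slc17a8* 92 of 4664 did (1.97%), spread over 136 other genes. The study aligned reads with HISAT2 at default parameters. For the read length, and for the strand setting and the treatment of reads with several matches in counting, no source used here gives a value.

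The libraries held 10834905 to 16016317 counts. *Slc17a7* had 22439 to 32547 of them per mouse, *Slc17a6* 78 to 344 and *Slc17a8* 33 to 72, so *Slc17a8* has the widest relative counting error. The label hippocampus was checked on 11 markers of its principal neurons, among them *Prox1* of granule cells and *Fibcd1* and *Wfs1* of CA1 pyramidal cells. All 11 were detected and tested, and their summed level was 977 to 1088 CPM (counts scaled to a fixed library size) in WT mice and 947 to 1112 CPM in *Nell-1*+/6R mice. No 2 libraries of a group agreed within counting noise.

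*Slc17a7* was the dominant transporter RNA in every mouse, followed by *Slc17a6* and then *Slc17a8*. To set genes side by side, CPM was divided by the length of the union of a gene's exons in kilobases, 5399 bases for *Slc17a6*, 5392 for *Slc17a7* and 4720 for *Slc17a8*. On this scale the level in WT mice was 376 ± 24.3 CPM per kb for *Slc17a7*, 3.30 ± 0.498 for *Slc17a6* and 0.829 ± 0.212 for *Slc17a8* (SD, n = 6). The order held in 12 of 12 mice, with this length and with that of the longest transcript. Among 16900 tested genes with a known length, *Slc17a7* ranked 35 in WT hippocampus, *Slc17a6* 8641 and *Slc17a8* 12389.

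As a share of the length-scaled sum of the 3 transporters, *Slc17a7* made up 98.7% to 99.2% in WT mice and 99.2% to 99.6% in *Nell-1*+/6R mice. *Slc17a6* made up 0.609% to 1.09% in WT mice and 0.260% to 0.492% in *Nell-1*+/6R mice, with no overlap. *Slc17a8* made up 0.142% to 0.286% and 0.150% to 0.298%, which overlap. The ratio of *Slc17a7* to *Slc17a6* per length was 90.4 to 163 in WT mice and 202 to 383 in *Nell-1*+/6R mice. These shares follow from the same values that chose the genes. Of the 5 transcripts of *Slc17a7* in GENCODE M21, 3 are annotated as retained introns, the longest included, and they count in the exon union. With the longest transcript its WT level was 659 ± 42.5 CPM per kb against 4.31 ± 0.650 for *Slc17a6* and 0.879 ± 0.225 for *Slc17a8* (SD, n = 6).

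*Slc17a6* separated the genotypes completely, with the *Nell-1*+/6R mice on the low side. The female WT mice had 21.02, 18.1 and 16.4 CPM and the male WT mice 13.7, 20.4 and 17.2 CPM. The female *Nell-1*+/6R mice had 5.98, 6.76 and 9.34 CPM and the male *Nell-1*+/6R mice 5.82, 7.78 and 9.90 CPM. The lowest WT mouse, a male, was 3.83 CPM above the highest *Nell-1*+/6R mouse, also a male, and within each sex the genotypes were apart as well. The fitted level in *Nell-1*+/6R mice was 42.6% of that in WT mice (log2 fold change -1.23, standard error 0.150). In bulk tissue, fewer cells that make an RNA and less of it per cell cannot be told apart. With single mice left out the log2 fold change ran from -1.33 to -1.16.

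**Figure D1:**
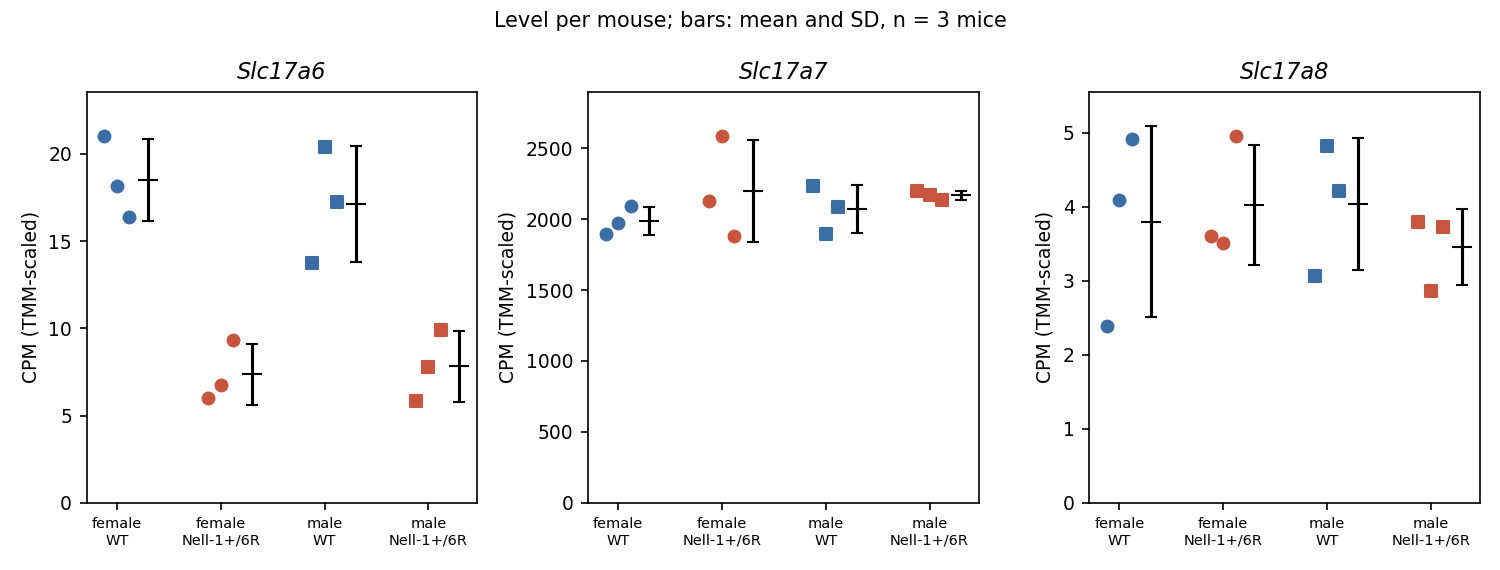
Level of each vesicular glutamate transporter gene in each of 12 mice, in CPM scaled by TMM factors, by sex and genotype (circles female, squares male, blue WT, red *Nell-1*+/6R), with the mean and SD of 3 mice beside each group and all axes starting at 0. *Slc17a6* runs from 13.7 to 21.02 CPM in WT and from 5.82 to 9.90 CPM in the other genotype, while the genotypes overlap in *Slc17a7* and *Slc17a8*.

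*Slc17a7* and *Slc17a8* overlapped between the genotypes. *Slc17a7* had 1897, 1973 and 2090 CPM in the female WT mice and 2233, 1898 and 2082 CPM in the male WT mice. The female *Nell-1*+/6R mice had 2129, 2587 and 1883 CPM and the males 2202, 2168 and 2137 CPM. The highest and the lowest of all 12 mice were both female *Nell-1*+/6R mice, whereas the 3 male *Nell-1*+/6R mice lay within a narrow range (SD 32.4 CPM). The log2 fold change of *Slc17a7* was 0.11 (standard error 0.0702), and it fell to 0.04 without female *Nell-1*+/6R replicate 2.

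*Slc17a8* had 2.38, 4.09 and 4.91 CPM in the female WT mice and 3.06, 4.82 and 4.22 CPM in the male WT mice. The female *Nell-1*+/6R mice had 3.60, 3.50 and 4.95 CPM and the males 3.79, 2.86 and 3.72 CPM. The lowest mouse of all was a female WT and the highest a female *Nell-1*+/6R. The log2 fold change was -0.06 (standard error 0.190), less than its error, and its sign was not stable when single mice were left out (-0.20 to 0.02).

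Of the 3 genes, 1 fell below all WT mice without overlap, where 18 of all 17937 genes tested (0.1%) did. Over all genes tested, 7 (0.039%) had an adjusted p under 0.05 (edgeR) in either direction, and 5 (0.0279%) did so downward. At the study's thresholds, an unadjusted p under 0.05 with a fold change above 1.5, 69 genes (0.385%) passed upward and 192 (1.07%) downward. These shares stand beside the members as background only, because the contrast chose them. The median log2 fold change of all genes tested was -0.000762.

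Sex had not been used to choose the genes. *Slc17a6* was at 12.9 ± 6.38 CPM in females and 12.5 ± 5.65 CPM in males (SD, n = 6 per sex, both genotypes together). The log2 fold change, male minus female with genotype in the model, was -0.02 (95% interval -0.34 to 0.30, adjusted p = 0.980, edgeR quasi-likelihood test with Benjamini-Hochberg adjustment). For *Slc17a7*, at 2093 ± 261 CPM in females and 2120 ± 121 CPM in males, it was 0.02 (95% interval -0.13 to 0.17, adjusted p = 0.964, edgeR). For *Slc17a8*, at 3.91 ± 0.972 and 3.75 ± 0.725 CPM, it was -0.06 (95% interval -0.47 to 0.35, adjusted p = 0.956, edgeR). Thus 0 of the 3 genes passed, where 6 of all genes tested did (0.0335%), and the 3 intervals together reach from 0.721-fold to 1.27-fold.

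The genotype difference was then set side by side in the sexes. For *Slc17a6* the log2 fold change was -1.33 (standard error 0.217) in females and -1.13 (standard error 0.218) in males. The difference between them, male minus female, was 0.19 (95% interval -0.47 to 0.86, adjusted p = 0.987, edgeR). For *Slc17a7* the values were 0.15 (standard error 0.102) in females and 0.07 (standard error 0.102) in males, with a difference of -0.08 (95% interval -0.39 to 0.23, adjusted p = 0.987, edgeR). For *Slc17a8* they were 0.09 (standard error 0.270) and -0.22 (standard error 0.275), with a difference of -0.32 (95% interval -1.15 to 0.52, adjusted p = 0.987, edgeR). With edgeR no gene of the 17937 passed this test (0%), although 554 had an unadjusted p under 0.05 and DESeq2 called 3. With 3 mice per group the interval for *Slc17a6* still admits a sex difference of 0.86 on the log2 scale.

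**Figure D2:**
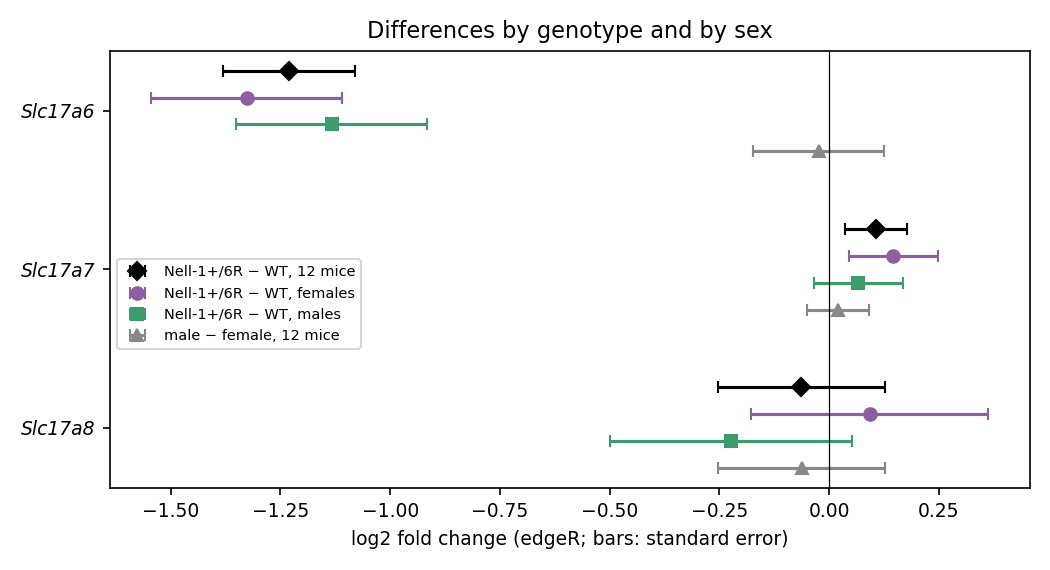
Log2 fold changes of the 3 genes with their standard errors, for *Nell-1*+/6R minus WT over 12 mice, in 6 females and in 6 males, and for male minus female over 12 mice. *Slc17a6* lies between -1.33 and -1.13 in every genotype comparison and at -0.02 by sex, while the values of the other two lie between -0.22 and 0.15.

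*Nell1*, the gene that carries the 6R allele, ranged from 30.6 to 44.0 CPM in the WT group and from 17.2 to 20.8 CPM in the *Nell-1*+/6R group, without overlap. Since both *Nell1* and *Slc17a6* separate the genotypes, their relation was examined only within a genotype. Over the 6 WT mice Pearson's r of log2 CPM was 0.17 (exact permutation test, two-sided, p = 0.769) and Spearman's rho 0.26 (exact p = 0.658). Over the 6 *Nell-1*+/6R mice r was -0.92 (exact permutation test, two-sided, p = 0.0333, adjusted over the 2 genotypes p = 0.0667) and rho -0.71 (exact p = 0.136, adjusted p = 0.272). Neither relation passed after adjustment. Without the 2 mice farthest from the median of *Nell1*, r was 0.21 in WT and -0.94 in *Nell-1*+/6R mice, over 4 mice each. A sex holds 3 mice of a genotype, too few for a separate value in each. With the means of the 4 groups removed, r over the 12 mice was -0.60, given as a description without a test.

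**Figure D3:**
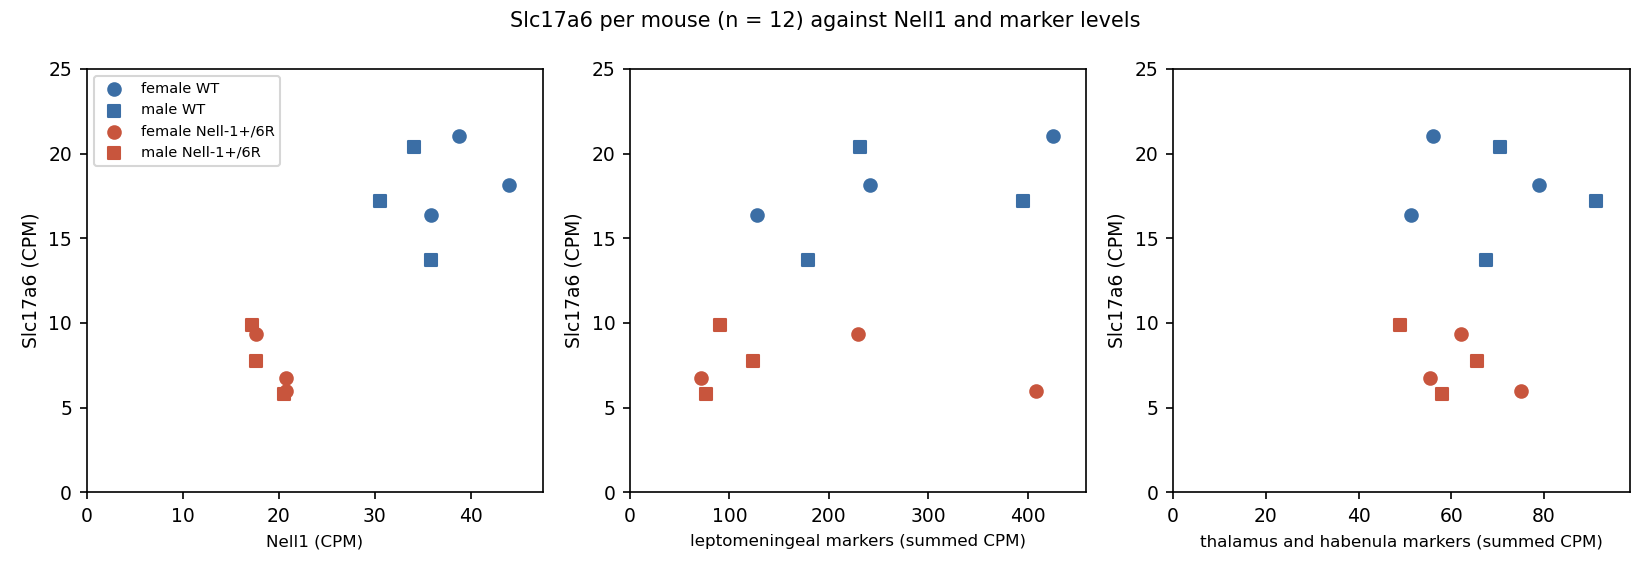
*Slc17a6* in CPM in each of 12 mice against *Nell1* in CPM, the summed CPM of 11 leptomeningeal markers and the summed CPM of 12 thalamus and habenula markers (circles female, squares male, blue WT, red *Nell-1*+/6R; all axes start at 0). The genotypes are apart on the *Slc17a6* axis in each panel and overlap along both marker axes.

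Some cell types and regions that use these transporters could enter a hippocampal dissection in unequal amounts, so their markers were read beside the genes. As background to the counts past the thresholds in all lists below, 1.07% of all genes tested passed downward and 0.385% upward. For thalamus and habenula, where *Slc17a6* is the main form, 10 of 12 markers were tested. The defining habenula factor *Pou4f1* had 4 counts over each genotype and the thalamic *Gbx2* had 14 and 5, too few to test. The summed level of the list was 51.4 to 91.2 CPM in WT mice and 48.9 to 75.0 CPM in the others, 9 of the 10 tested markers had a log2 fold change below 0, and their median was -0.19. The 4 most abundant, *Prkcd*, *Rgs16*, *Tcf7l2* and *Lef1*, had log2 fold changes of -0.10, -0.20, -0.19 and -0.19. *Chrnb4*, a nicotinic receptor subunit of the medial habenula, was the only marker past the thresholds, with a log2 fold change of -1.72 (adjusted p = 1.00, edgeR). Its 102 WT counts included 72 from 1 mouse, female WT replicate 2, and without that mouse 0 of the 10 passed, as was so without replicate 3 of the male WT mice, replicate 2 or 3 of the female *Nell-1*+/6R mice, and replicate 1 or 2 of the males of that genotype. The count was also 0 with limma-voom, with genotype alone, with the replicate block, with the filter of 1 CPM in 6 mice and with either marker score as covariate, so that it stayed at 1 in 10 of 22 settings. The thalamus and habenula score is the mean of these same markers, so the count of 0 with that score carries no information. With the score of this list as a further covariate, the log2 fold change of *Slc17a6* was -1.24 (standard error 0.186).

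The 7 Cajal-Retzius markers summed to 57.8 to 66.7 CPM in WT mice and to 49.2 to 84.2 CPM in the others. *Reln*, the secreted protein by which these cells are known, was at 41.7 and 42.2 CPM, but interneurons express it too. *Trp73* was at 8.50 and 9.51 CPM, *Ndnf* at 6.47 and 6.65 and *Nhlh2* at 1.90 and 1.47, and all 4 overlapped. *Lhx5*, a transcription factor of these cells, was past the thresholds upward, with 15 counts in all in the WT group and 41 in the *Nell-1*+/6R group, a log2 fold change of 1.46 (adjusted p = 1.00, edgeR). The count of markers past the thresholds was 0 with the filter of 1 CPM in 6 mice, and 2 with the leptomeningeal covariate or without replicate 1 or 2 of the female *Nell-1*+/6R mice. Of the 7 markers, 2 had a log2 fold change below 0, and the median was 0.02.

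Among the other neurons that use these transporters, 0 of 6 markers of subiculum and retrosplenial cortex, 0 of 5 of mossy cells and 0 of 11 of hippocampal principal neurons passed the thresholds. *Tshz2*, *Fn1*, *Scn4b* and *Cntn6* of the subicular list had log2 fold changes of -0.19, -0.08, -0.17 and 0.03, and the list's median was -0.13. *Calb2*, a calcium-binding protein of mossy cells, was at 18.8 and 22.6 CPM, *Csf2rb2* at 3.70 and 4.25, *Calcrl* at 3.88 and 3.61 and *Nmb* at 3.79 and 3.91, with a list median of 0.20. Of the principal neuron markers, *Fibcd1* (184 and 215 CPM), *Neurod6* (182 and 195), *Wfs1* (187 and 172) and *Pou3f1* (152 and 157) were the most abundant, and the list's median log2 fold change was -0.11. *Prox1*, *Dsp*, *C1ql2*, *Rfx3* and *Plk5* of granule cells had log2 fold changes of -0.23, -0.23, -0.33, -0.12 and -0.34. *Fibcd1*, *Pou3f1* and *Spink8* had 0.23, 0.05 and 0.25, *Wfs1* had -0.11, and *Neurod6* and *Bok* had 0.10 and 0.08. None of them reached an adjusted p under 0.05 (edgeR).

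For the neurons that use *Slc17a8*, 0 of 6 CCK interneuron markers and 0 of 2 tested serotonin neuron markers passed. *Cck*, the neuropeptide, was at 280 and 298 CPM in WT and *Nell-1*+/6R mice, *Cnr1*, the cannabinoid receptor, at 107 and 121, *Vip* at 10.9 and 11.5 and *Htr3a*, a serotonin-gated channel, at 9.47 and 11.4. The median log2 fold change of the CCK list was 0.11. *Tph2*, the enzyme of serotonin synthesis, was at 0.792 and 0.722 CPM and *Ddc* at 5.83 and 5.21 CPM. The serotonin transporter *Slc6a4* had 11 and 4 counts over the genotypes and the serotonergic factor *Fev* 4 and 1.

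Leptomeningeal markers moved in the same direction as *Slc17a6*. Of the 11 markers, 7 were lower past the thresholds in *Nell-1*+/6R mice and 0 higher, where 1.07% and 0.385% of all genes tested were. The median log2 fold change was -1.08, and 0 of 11 reached an adjusted p under 0.05. The list was chosen with earlier results of these data known, so the count is a description. The 7 were the collagens *Col1a1*, *Col1a2* and *Col3a1*, the proteoglycan *Lum*, the retinoic acid enzyme *Aldh1a2* and the transporters *Slc22a6* and *Slc6a13*, between -1.42 and -0.59. *Igf2*, *Dcn* and *Slc13a4*, abundant members of the list that did not pass, had -0.89, -0.45 and -1.18. The summed level was 128 to 425 CPM in WT mice and 71.2 to 408 CPM in the others, so the genotypes overlapped. Without female WT replicate 1, which had the highest sum, 4 of the 11 were past the thresholds, and without female WT replicate 3, 9 were. Over all 22 settings the count ran from 0 to 9.

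In the order of replicates used for *Slc17a6* above, the leptomeningeal sum was 425, 241 and 128 CPM in the female WT mice and 179, 231 and 395 CPM in the male WT mice. It was 408, 71.2 and 229 CPM in the female *Nell-1*+/6R mice and 76.6, 124 and 90.6 CPM in the males. The 4 lowest sums belonged to *Nell-1*+/6R mice, and the 3 highest to 2 WT mice and 1 *Nell-1*+/6R mouse. With the leptomeningeal score as a covariate the log2 fold change of *Slc17a6* was -0.996 (standard error 0.193) and that of *Slc17a7* turned from 0.11 to -0.07 (standard error 0.0696). The part of leptomeningeal tissue in the *Slc17a6* difference was not tested. This fit cannot give it, because the markers that make the score were themselves lower in *Nell-1*+/6R mice.

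**Figure D4:**
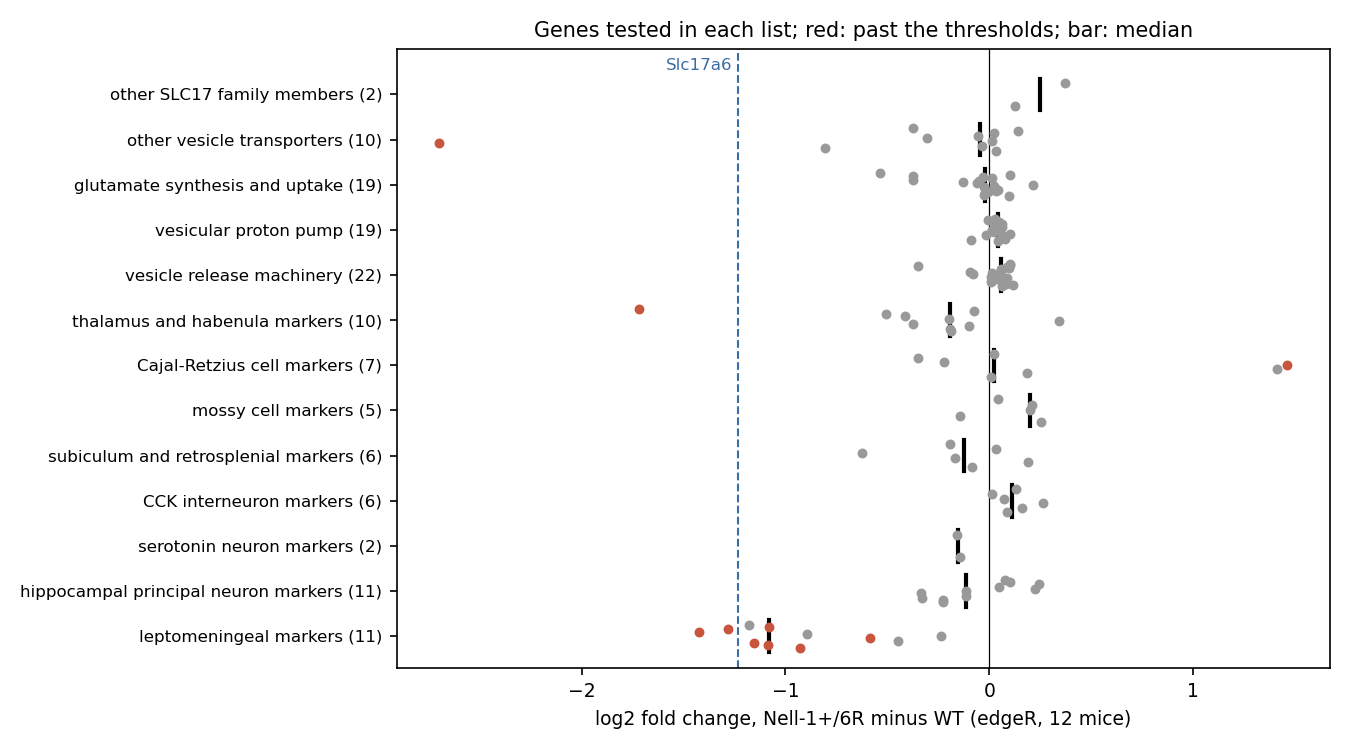
Log2 fold change of *Nell-1*+/6R minus WT for each tested gene of 13 lists, with the number of tested genes in brackets, red points for genes past the thresholds, a black bar at the list's median and a dashed line at *Slc17a6*. The leptomeningeal list has its median at -1.08, and the medians of the other lists lie between -0.19 and 0.25.

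The other members of the SLC17 family carry organic anions. *Slc17a5*, the sialic acid exporter of lysosomes, was at 30.0 and 32.7 CPM in WT and *Nell-1*+/6R mice and *Slc17a9*, the vesicular nucleotide transporter, at 0.557 and 0.714 CPM, with log2 fold changes of 0.13 (standard error 0.0794) and 0.37 (standard error 0.295), and 0 of the 2 passed the thresholds. *Slc17a1*, *Slc17a3* and *Slc17a4*, known from kidney, liver and gut, had a count of 0 in all 12 mice, which allows 0.0189 CPM over all libraries for counting error only. *Slc17a2* had 3 counts in all in WT and 1 in *Nell-1*+/6R mice.

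Of 10 other vesicle transporters, 1 was lower past the thresholds and 0 higher. It was the acetylcholine transporter *Slc18a3*, with 10 counts summed over WT and 1 over *Nell-1*+/6R mice. The ratio was 0.0969, for which counting error alone gives an interval of 0.00223 to 0.681 at 95% confidence. It had an adjusted p of 1.00 (edgeR) and did not pass without female WT replicate 1 or male WT replicate 1, with DESeq2, with the filter of 1 CPM in 6 mice or with the leptomeningeal covariate. Without female *Nell-1*+/6R replicate 3, 2 genes of the list passed. The GABA transporter *Slc32a1* was at 79.9 and 81.8 CPM and the zinc transporter *Slc30a3*, found in the vesicles of mossy fibres, at 106 and 102 CPM. The vesicle proteins *Sv2a* and *Sv2b* had log2 fold changes of 0.02 and 0.14. The median of the list was -0.04.

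Genes that supply and clear glutamate showed 0 of 19 past the thresholds in either direction. The astrocyte transporters *Slc1a2* (2382 and 2349 CPM) and *Slc1a3* (563 and 574 CPM), glutamine synthetase *Glul* (1296 and 1276 CPM) and the mitochondrial glutamate carrier *Slc25a22* (297 and 320 CPM) were the most abundant, with log2 fold changes of -0.02, 0.03, -0.02 and 0.10. The list's median was -0.02. The cystine-glutamate exchanger *Slc7a11* had the lowest value of the list, -0.54 (standard error 0.246). It was below the fold threshold, but 1 gene of the list passed with limma-voom and when replicate 3 of any of the 4 groups was left out.

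The proton pump that drives all 3 transporters had 0 of 19 genes past the thresholds and a median log2 fold change of 0.04. Its most abundant genes were *Atp6v0a1*, *Atp6v1a*, *Atp6v1g2* and *Atp6v1b2*, at 0.04, 0.02, 0.06 and 0.01. The vesicle release machinery had 0 of 22 past the thresholds and a median of 0.06. Of these genes, *Cplx2* (2479 and 2627 CPM), *Snap25* (1889 and 1974), *Syp* (1329 and 1407) and *Vamp2* (1229 and 1306) were the most abundant. No gene of these 13 lists had an adjusted p under 0.05 (edgeR). Over all genes tested only 7 of 17937 (0.039%) did, 5 lower and 2 higher, so the absence of calls says little about these lists.

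Neighbouring genes were read next, because *Slc17a6* and *Slc17a7* share a chromosome with *Nell1*. Within 1 Mb of the start of *Slc17a6*, 4 other genes were tested. Of these, 1 was lower past the thresholds, where 1.07% of all genes tested were. *Ano5* (Entrez ID 233246, chr7:51510007-51598707), of the anoctamin membrane protein family, starts 0.112 Mb before it. The level of *Ano5* was 1.20 ± 0.304 CPM in WT mice against 0.677 ± 0.199 CPM (SD, n = 6 each), with overlap, and was past the thresholds with a log2 fold change of -0.81 (adjusted p = 1.00, edgeR). The 3 genes on the other side, *Fancf*, *Gas2* and *Svip*, were 0.239, 0.240 and 0.375 Mb away and had log2 fold changes of -0.12, 0.14 and 0.01.

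Around *Slc17a7*, in a stretch dense with genes, 109 were tested, of which 1 was lower past the thresholds and 0 higher. That is near the shares over all genes tested, 1.07% lower and 0.385% higher. It was *Emp3* (Entrez ID 13732, chr7:45918023-45921426), a membrane protein gene, 0.754 Mb away, at 1.96 ± 0.732 and 1.27 ± 0.168 CPM (SD, n = 6; log2 fold change -0.62, adjusted p = 1.00, edgeR). The median of the 109 was 0.01. Around *Slc17a8*, 0 of 10 passed and the median was 0.01. No neighbour of any of the 3 genes had an adjusted p under 0.05 (edgeR), where 0.039% of all genes tested did.

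Likeness of pattern was measured as Pearson's r of log2 CPM over 12 mice after the mean of each of the 4 groups was removed, among genes with a mean of at least 1 CPM. For each mouse, all genes come from the same library and dissection, and the highest of 14385 correlations is large by selection. The genes most like *Slc17a6* were Entrez ID 100502898, for which no symbol was found, *Ptprm*, a receptor phosphatase, *F13a1*, *Slc30a7*, a zinc transporter, and *Ebf1*, with r from 0.97 to 0.94. *F13a1* is known from macrophages and *Ebf1* from mural and fibroblast cells as well as neurons. Their own log2 fold changes by genotype were between -0.36 and 0.07, far from that of *Slc17a6*.

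The genes most like *Slc17a7* were *Wscd2*, *Camkv*, *Syn1*, *Efna3* and *Entpd6* (r from 0.98 to 0.97), among them the kinase-like vesicle protein *Camkv* and the synaptic vesicle protein *Syn1*. Those most like *Slc17a8* were *Trim24*, *Tbc1d1*, *Wdr59*, *Crebbp* and *Per3* (r from 0.97 to 0.94), of which *Crebbp* encodes a histone acetyltransferase and *Per3* a clock protein. The 3 transporters were not among each other's nearest genes: r was -0.61 between *Slc17a6* and *Slc17a7*, 0.17 between *Slc17a6* and *Slc17a8* and -0.28 between *Slc17a7* and *Slc17a8*.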

How the data were processed

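RNA of hippocampus from 12 mice was measured. The deposited values are raw counts per Entrez gene ID, made by the authors with HISAT2 (2.1.0) and featureCounts (2.0.1 per the submitters' processing notes) on mm10, with no normalization and no pooling. The study's methods name a different version of featureCounts. Columns were matched to mice by sample description, and 0 were left unmatched. Of 27179 IDs, 25275 were named from RefSeq GRCm38.p6, 18 from GENCODE M21, and 1886 had no name. WT titles hold an abbreviation of heterozygote, although genotype is labelled WT in them.

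Genes with at least 0.2 CPM in at least 2 mice were tested with edgeR (4.0.16, R 4.3.3), as a quasi-likelihood test with TMM factors, of sex plus genotype, and of their interaction. P-values were adjusted by Benjamini-Hochberg over all genes tested and measure the spread between these mice. The scripts were tested on simulated counts. Marker scores are mean log2 CPM (prior count 2).

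The members and lists were chosen with earlier results of these data known. Named were the members, *Nell1*, the 4 most abundant genes of each list and the 5 genes most like each member. Genes of the lists and genes within 1 Mb of a member were also named if past the study's thresholds. *Slc7a11*, *Slc17a2*, *Slc17a1*, *Slc17a3*, *Slc17a4*, *Prox1*, *Dsp*, *C1ql2*, *Rfx3*, *Plk5*, *Spink8*, *Bok*, *Pou4f1*, *Gbx2*, *Slc6a4*, *Fev*, *Fancf*, *Gas2* and *Svip* were named beside that rule after their values were seen. So were *Ramp3*, *Tnnt1*, *Gpr151*, *Chrnb3* and *Slitrk6*. Alternatives were other scaling factors, limma-voom, DESeq2, genotype alone, the replicate number as a term, other filters, marker scores as covariates and each mouse left out.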

Additional observations from a re-analysis of the deposited data

Results flagged for a closer look

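In the 6 mice of a genotype, the levels of the 3 transporters, of *Nell1*, the ratio of *Slc17a7* to *Slc17a6* and the summed levels of the 13 lists were searched for 1 mouse far from the rest (Dixon's test), 36 sets of 6 mice in all. Chance marks about 1 in 20 such sets, and 2 were marked here. The summed Cajal-Retzius markers were 66.7 CPM in male WT replicate 2, where the next WT mouse had 60.8 CPM, and this mouse had 20.4 CPM of *Slc17a6*. The summed markers of subiculum and retrosplenial cortex were 179 CPM in female *Nell-1*+/6R replicate 2, where the next *Nell-1*+/6R mouse had 201 CPM, and this mouse had the highest *Slc17a7* of all. None of the transporter genes themselves held such a mouse.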

How the results depend on the processing

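The log2 fold change of *Slc17a6* by genotype lay between -1.33 and -0.996 over 22 settings, of which 12 leave out 1 mouse. That of *Slc17a7* ran from 0.04 to 0.15 with single mice left out and was -0.0708 with the leptomeningeal score as covariate. The cause was not tested. That of *Slc17a8* ran from -0.20 to 0.04 over all settings. No setting brought a member past the sex or interaction test. At an adjusted p under 0.05, genotype called 7 genes with edgeR, 13 with DESeq2, 2 with the leptomeningeal score as covariate and 6 to 8 with single mice left out. The interaction called 0 genes with edgeR, 3 with DESeq2 and 0 to 2 with single mice left out, the 2 without male WT replicate 3. At the study's thresholds, 261 genes became 170 with DESeq2 and 82 when at least 1 CPM in at least 6 mice was asked, which tests fewer genes. It was 202 to 400 with single mice left out, the 400 without female *Nell-1*+/6R replicate 1. Counts within lists under all settings, and other scaling of the relation of *Slc17a6* with *Nell1*, were added after seeing the data. That relation kept r between -0.92 and -0.91 in *Nell-1*+/6R mice.

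Equal replicate numbers were not treated as pairs. Same-numbered mice of different groups had a median correlation of -0.00694 and different-numbered mice -0.0288, and 3 of 12 mice correlated best with their own number. Whether littermates were paired cannot be read from this, since the labels name no litters. With a replicate block the log2 fold changes by genotype were -1.25 for *Slc17a6*, 0.10 for *Slc17a7* and -0.04 for *Slc17a8*, and 8 genes were called. Depth limits *Slc17a8* most, with 33 to 72 counts per mouse.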
